A study of Mus musculus with 8 samples.

Results

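The transcripts examined here are those of 10 genes of the NF-kB family, taken from the 11233 genes of the deposited table by symbol. They are the 5 subunits (Nfkb1, Rel and Rela of the canonical arm, Nfkb2 and Relb of the noncanonical arm) and 5 inhibitors (Nfkbia, Nfkbib, Nfkbie, Nfkbiz and Tnfaip3). All 10 were in the table. They were compared between CCR8+ and CCR8- CD4+ conventional T (Tconv) cells sorted from tumors, in 4 libraries of each population.

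The tumors were grown from B16-F10, a mouse melanoma line, implanted under the skin of Foxp3EGFP-DTR mice that were 8 to 14 weeks old. In this strain the Foxp3 locus drives a human receptor for diphtheria toxin (DTx) together with EGFP, and the toxin removes Treg cells throughout the body and not in the tumor alone. Both populations carried this genotype and both came from DTx-treated mice, which received 4 injections of 1 µg between days 7 and 13, so there is no Treg cell-sufficient group among these libraries. CD4+ cells were enriched, and EGFP-negative cells were then sorted by surface CCR8 on day 16, according to the methods and the figure legend for these cells. A supplementary title gives day 18 instead. The figure legend describes them as 4 biological replicates, all collected on the same day. The labels number the libraries 1 to 4 in each population without saying whether a number is a mouse. The p-values measure the spread between these libraries.

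NF-kB is a family of dimeric transcription factors that T cells hold in an inactive state and release on stimulation. In the canonical arm, signals from the T cell receptor, costimulatory receptors or cytokines lead to the loss of IkB proteins, which frees dimers of RelA or c-Rel with the Nfkb1 product. In the noncanonical arm, a subset of TNF receptors stabilizes the kinase NIK (Map3k14), which leads to processing of the Nfkb2 product and release of RelB dimers. Several IkB genes and Tnfaip3 are themselves NF-kB targets and act as negative feedback, and in T cells c-Rel and RelA serve activation, survival and the development of Treg cells. Most of this control acts on proteins, which RNA levels do not measure.

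To show the feedback element that the family is known for, the promoters of the members were searched for the degenerate kappa B consensus, on both strands and with overlapping matches allowed. RefSeq promoters of GRCm38.p6, from 250 bases before to 50 after a start site, were at hand for 7 of the 10 members, the others being Nfkb1, Relb and Nfkbiz. A match was found for 5 of those 7 genes, and in 7 of their 10 promoters, whereas 4.51% of all 32851 promoters and 5.14% of all genes held one. The base composition of the promoters was not taken into account. The windows below have 30 bases each and are written 5′ to 3′ on the strand of the gene, with the match in capitals. They were chosen so that each of the 5 genes has the match nearest to a start site.
Nfkbia, chr12:55492657-55492686, minus strand: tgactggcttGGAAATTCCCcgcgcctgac
Tnfaip3, chr10:19015403-19015432, minus strand: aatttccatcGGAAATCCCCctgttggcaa
Nfkbie, chr17:45555584-45555613, plus strand: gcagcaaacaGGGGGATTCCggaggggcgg
Nfkb2, chr19:46304716-46304745, plus strand: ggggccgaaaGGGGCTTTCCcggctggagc
Rel, chr11:23771041-23771070, minus strand: gtaagcagcgGGAAATCCCCccccctcccc
The promoters of Rela and Nfkbib held no match in this window. A match is a description of letters and not of binding, and no binding was measured in these libraries.

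Each deposited value is a number of reads over a factor common to the library, and is called a normalized count here. The libraries held between 12067780 and 17802628 reads and detected between 8569 and 10882 genes. Missing genes set 3 libraries apart, since genes whose level was 100 or more in the 7 other libraries were at 0, numbering 242 for CCR8- replicate 1, 44 for CCR8+ replicate 1 and 36 for CCR8+ replicate 3. Values without these 3 libraries are given beside those results that they move most. Ccr8 transcripts followed the sort, from 1293 to 6214 normalized counts in CCR8- and from 6970 to 42508 in CCR8+ libraries. Transcripts of T cells were present in all libraries, with 7 of 7 markers above 0 and summed levels between 71310 and 111843, while summed levels of 4 B cell markers were between 0 and 447 in CCR8+ and between 29.4 and 365 in CCR8- libraries. Of these, 2 of 4, Ms4a1 among them, were at 0 throughout, while Cd79a reached 259 in CCR8- replicate 3 and Cd79b reached 447 in CCR8+ replicate 1. All 10 macrophage markers had a log2 fold change above 0, with summed levels from 2624 to 28313 in CCR8+ and from 80.8 to 62030 in CCR8- libraries. Adgre1 was at 0 in CCR8- replicates 1 and 3 and CCR8+ replicate 3, Csf1r and Itgam were at 0 in CCR8- replicate 1, and Fcgr3 and Mrc1 were at 0 in CCR8- replicate 3. All 7 melanoma markers had a log2 fold change below 0, with summed levels from 232 to 21841 in CCR8+ and from 105 to 17389 in CCR8- libraries. This direction rested on the libraries with missing genes. The median of the melanoma markers was −1.06 over all libraries and 0.26 without the 3, where 5 lay above and 2 below 0. Tyr, Mitf and Sox10 were at 0 in CCR8- replicate 1 and in CCR8+ replicates 1 and 3, and Mlana was at 0 in CCR8+ replicate 1. Of markers of other cells, 4 of 6 dendritic cell genes and 3 of 3 neutrophil genes were higher and 4 of 4 CD8+ and NK cell genes lower in CCR8+ cells, with summed levels up to 17079, 734 and 4060 in any library. In bulk samples a smaller number of cells of a type and less RNA per cell cannot be told apart. Myeloid and melanoma cells express NF-kB genes too, and the part of these markers in the results was not tested beyond the values given beside them.

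Differences were tested with limma on log2(normalized count + 1), a scale that understates changes of genes with few reads, over 11032 genes with a mean of at least 10. A gene was called at a Benjamini-Hochberg adjusted p under 0.05. No NF-kB member was called, and limma called 0% of all genes tested, while 562 genes had an unadjusted p under 0.05. Of the 10 log2 fold changes, 9 were above 0, compared with 52.4% of all genes, and their median was 0.32, compared with 0.04 over all genes. Nfkb1 alone had an unadjusted p under 0.05 by limma, as did 2.8% of all genes in the upward and 2.29% in the downward direction. For none of the 10 did the 4 CCR8+ libraries lie wholly above or below the 4 CCR8- libraries, whereas 2.37% of all genes were wholly above and 2.03% wholly below. Within libraries of the same number, Nfkb1 and Nfkbia were higher in CCR8+ cells in 4 of 4, as were 8.44% of all genes, and Tnfaip3 was lower in 4 of 4, as were 8.1%. Without the 3 libraries that lacked genes, which leaves 2 CCR8+ and 3 CCR8- libraries, the median of the members was 0.15 and 7 of 10 lay above 0.

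**Figure D1:**
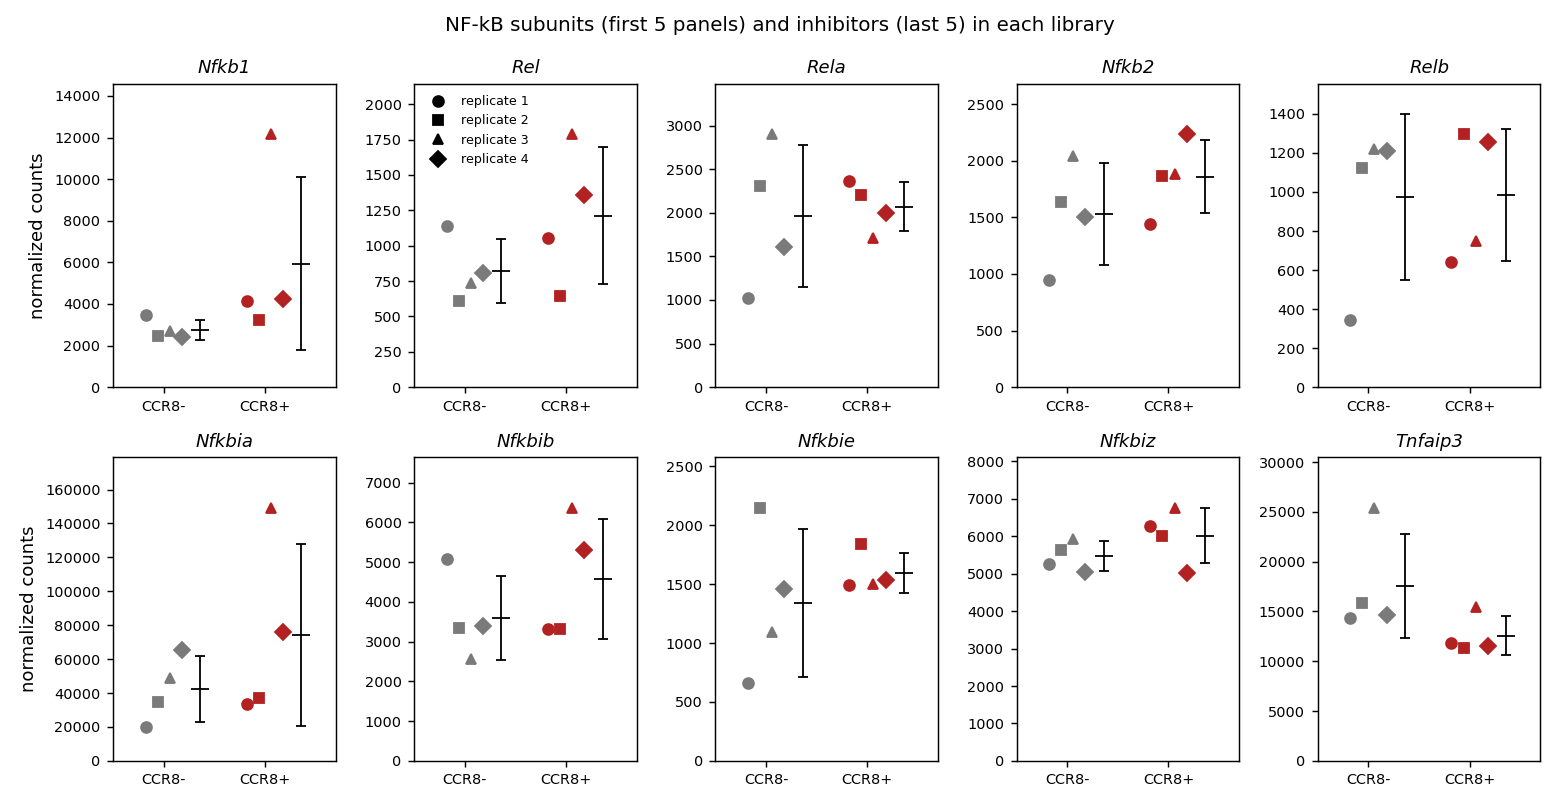
Normalized counts (linear axis from 0) of the 10 NF-kB genes in each CCR8- (grey) and CCR8+ (red) library, with the marker shape giving the replicate number and the bar giving the mean and SD of 4 libraries. The populations overlap for every gene, and CCR8+ replicate 3 stands far above the rest for Nfkb1, at 12162, and for Nfkbia, at 149159.

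The canonical subunits were examined first. Nfkb1, the precursor of a subunit that lacks a transactivation domain, lies on chromosome 3 from 135584655 to 135691547 (GRCm38, GENCODE M21, as for all gene positions here). Its level was 3461, 2445, 2708 and 2387 normalized counts in CCR8- replicates 1 to 4 and 4128, 3223, 12162 and 4243 in CCR8+ replicates 1 to 4. CCR8+ replicate 3 was 12162 where the other CCR8+ libraries reached 4243 at most, and CCR8+ replicate 2 fell below CCR8- replicate 1, so the populations overlapped. The means (SD, n = 4) were 5939 ± 4174 for CCR8+ and 2750 ± 494 for CCR8- cells. The log2 fold change was 0.91 (standard error 0.37, 95% interval 0.11 to 1.71), the largest of the members. It did not pass limma's test over all genes (adjusted p = 0.838), nor an exact two-sided permutation test over the 70 assignments of the labels (p = 0.0571), for which the smallest possible p is 0.0286. The log2 differences within same-numbered libraries were 0.25, 0.40, 2.17 and 0.83. Without CCR8+ replicate 3 the log2 fold change was 0.50, and without the 3 libraries that lacked genes it was 0.56. In CCR8+ replicate 3 the summed level of macrophage markers was 2624, the lowest of the CCR8+ libraries.

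Rel encodes c-Rel, the subunit most restricted to lymphoid and myeloid cells, and lies on chromosome 11 from 23736847 to 23770970. It had 1139, 609, 739 and 805 normalized counts in CCR8- replicates 1 to 4 and 1054, 644, 1788 and 1360 in CCR8+ replicates 1 to 4. CCR8+ replicates 3 and 4 were above all CCR8- libraries, and replicates 1 and 2 of the populations were close to each other. Between the populations this gave a log2 fold change of 0.50 (standard error 0.34, 95% interval −0.26 to 1.26), with a limma adjusted p of 0.838 and an exact permutation p of 0.257. Without CCR8+ replicate 3 it was 0.28, and without CCR8+ replicate 2 it was 0.77.

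Rela encodes the widely expressed activating subunit and lies on chromosome 19 from 5637483 to 5648130. Its normalized counts were 1027, 2307, 2903 and 1608 in CCR8- replicates 1 to 4 and 2369, 2202, 1715 and 2000 in CCR8+ replicates 1 to 4. All 4 CCR8+ libraries lay within the range of the CCR8- libraries. Its log2 fold change was 0.17 (standard error 0.31, 95% interval −0.50 to 0.85, limma adjusted p = 0.915, exact permutation p = 0.657). Its direction rested on CCR8- replicate 1, without which it was −0.10. It was 0.40 without CCR8- replicate 3 and −0.07 without the 3 libraries that lacked genes.

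Of the noncanonical subunits, Nfkb2, whose product is processed on noncanonical signaling, lies on chromosome 19 from 46304320 to 46312385. It had 948, 1637, 2039 and 1507 normalized counts in CCR8- replicates 1 to 4 and 1444, 1867, 1885 and 2234 in CCR8+ replicates 1 to 4. The lowest library of each population was replicate 1, and the ranges overlapped. Nfkb2 had a log2 fold change of 0.31 (standard error 0.27, 95% interval −0.28 to 0.90, limma adjusted p = 0.839, exact permutation p = 0.314). Without CCR8- replicate 1 it was 0.10, and without CCR8- replicate 3 it was 0.47. Nfkb2 shares 18.1% of its exonic bases with another gene, and whether the counting used strand is not given in the sources used here.

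Relb, which encodes the partner of processed Nfkb2, lies on chromosome 7 from 19606217 to 19629438. Its values were 342, 1123, 1218 and 1212 normalized counts in CCR8- replicates 1 to 4 and 643, 1296, 747 and 1255 in CCR8+ replicates 1 to 4. The 3 lowest values, from 342 to 747, were those of the 3 libraries in which genes were missing. The means (SD, n = 4) were almost the same, at 985 ± 338 for CCR8+ and 974 ± 424 for CCR8- cells. The log2 fold change was 0.12 (standard error 0.44, 95% interval −0.85 to 1.08, limma adjusted p = 0.964, exact permutation p = 0.743), and without CCR8- replicate 1 it was −0.33.

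Nfkbia, the gene of IkB alpha, which holds RelA dimers in the cytoplasm and is resynthesized after their release, was the most abundant member. It lies on chromosome 12 from 55489410 to 55492647, and its promoter match is the first of those shown above. It had 19708, 34896, 49046 and 65496 normalized counts in CCR8- replicates 1 to 4 and 33562, 37179, 149159 and 75952 in CCR8+ replicates 1 to 4. The highest library was again CCR8+ replicate 3 and the lowest CCR8- replicate 1, a 7.57-fold range, and the populations overlapped widely. Nfkbia had a log2 fold change of 0.67 (standard error 0.53, 95% interval −0.49 to 1.83, limma adjusted p = 0.838, exact permutation p = 0.371). Within same-numbered libraries the log2 differences were 0.77, 0.09, 1.60 and 0.21, and they were largest in the numbers that hold a library with missing genes. Without those 3 libraries the log2 fold change was 0.14, and without CCR8+ replicate 3 alone it was 0.24.

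Nfkbib encodes IkB beta, another cytoplasmic inhibitor, on chromosome 7 from 28758251 to 28767512. It had 5087, 3347, 2558 and 3390 normalized counts in CCR8- replicates 1 to 4 and 3309, 3320, 6361 and 5297 in CCR8+ replicates 1 to 4. The CCR8+ libraries split into a lower pair, replicates 1 and 2, and a higher pair, replicates 3 and 4. Its log2 fold change was 0.33 (standard error 0.28, 95% interval −0.29 to 0.96, limma adjusted p = 0.839, exact permutation p = 0.314). It was 0.15 without CCR8+ replicate 3, 0.18 without CCR8- replicate 3, 0.00 without both and 0.51 without CCR8- replicate 1. Of its exonic bases 16.4% are shared with another gene.

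Nfkbie, the gene of IkB epsilon, lies on chromosome 17 from 45555703 to 45563169. Its levels were 658, 2146, 1092 and 1455 normalized counts in CCR8- replicates 1 to 4 and 1493, 1843, 1505 and 1537 in CCR8+ replicates 1 to 4. The CCR8+ libraries lay close together and inside the wide range of the CCR8- libraries. Nfkbie differed by a log2 fold change of 0.38 (standard error 0.33, 95% interval −0.35 to 1.10, limma adjusted p = 0.839, exact permutation p = 0.4). It was 0.16 without the 3 libraries that lacked genes, 0.08 without CCR8- replicate 1 alone and 0.65 without CCR8- replicate 2 alone.

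Nfkbiz encodes an atypical, nuclear IkB protein that can also coactivate NF-kB targets, on chromosome 16 from 55811375 to 55838899. It had 5268, 5646, 5938 and 5047 normalized counts in CCR8- replicates 1 to 4 and 6271, 6003, 6757 and 5013 in CCR8+ replicates 1 to 4. This was the most even member, with a 1.35-fold range over the 8 libraries. The log2 fold change was 0.13, and its 95% interval of −0.28 to 0.53 was the narrowest of the 10 (standard error 0.18, limma adjusted p = 0.893, exact permutation p = 0.229). It was 0.07 without CCR8+ replicate 3, 0.21 without CCR8+ replicate 4 and −0.01 without the 3 libraries that lacked genes.

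Tnfaip3, on chromosome 10 from 19000910 to 19015657, encodes a ubiquitin-editing enzyme that restrains the canonical arm upstream of the IkB kinases. It was the only member with a log2 fold change below 0. Its normalized counts were 14346, 15798, 25388 and 14679 in CCR8- replicates 1 to 4 and 11863, 11379, 15458 and 11564 in CCR8+ replicates 1 to 4. CCR8+ replicates 1, 2 and 4 were below every CCR8- library, while CCR8+ replicate 3 was above CCR8- replicates 1 and 4. The means (SD, n = 4) were 12566 ± 1938 for CCR8+ and 17553 ± 5260 for CCR8- cells. The log2 fold change was −0.45 (standard error 0.25, 95% interval −1.0 to 0.09) and did not pass limma's test (adjusted p = 0.838) or the exact permutation test (p = 0.0857). The log2 differences within same-numbered libraries were −0.27, −0.47, −0.72 and −0.34. Without CCR8- replicate 3, the highest library, the log2 fold change was −0.26, and without the 3 libraries that lacked genes it was −0.65.

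**Figure D2:**
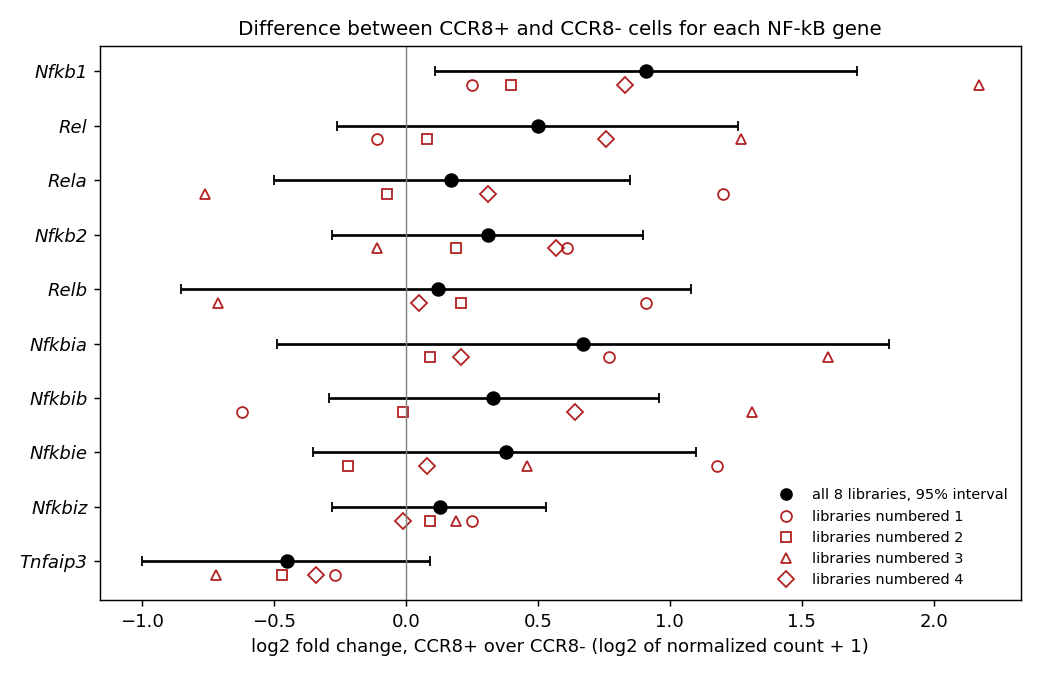
Log2 fold change of CCR8+ over CCR8- cells for each NF-kB gene, with black points and bars for limma's estimate and 95% interval over 8 libraries and open symbols for the difference between libraries of the same number. The interval lies above 0 for Nfkb1 alone, from 0.11 to 1.71, and the 4 open symbols of Tnfaip3 all lie below 0.

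DESeq2, the tool that the submitters' processing notes name, was run on the recovered reads with its Wald test and called 26 of the 2259 genes for which it gave an adjusted p, or 1.15%, and none of the 8 members among them. Its lowest values for members were adjusted p = 0.189 for Nfkb1 and 0.453 for Tnfaip3, and it gave none for Rel and Relb. edgeR's quasi-likelihood test called 0 genes at an adjusted p under 0.05 and 487 genes at an unadjusted p under 0.05.

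The levels of the members were compared per kilobase of exonic sequence, with lengths from GENCODE M21. A length counted every annotated exonic base of the gene, 12061 for Nfkb1 and 3072 for Rela, and not the transcripts present in these cells. The order below rests on these lengths. Before division, Nfkb1 had the higher mean, 2750 against 1962 for Rela in CCR8- and 5939 against 2072 in CCR8+ libraries. Nfkbia was far above the rest, with a median over the 8 libraries of 26778 normalized counts per kilobase. Tnfaip3 at 2008, Nfkbib at 1553 and Nfkbiz at 1154 followed, so the inhibitors were above all subunits apart from Nfkbie. Tnfaip3 was above Nfkbib in 5 of 8 libraries, and Nfkbib was above Nfkbiz in 7 of 8, so that these neighbors were not separated in every library. Rela, at a median of 684 normalized counts per kilobase, was the highest subunit and was above Nfkbie, at 492, in 8 of 8 libraries. Nfkb2 at 382, Relb at 301, Nfkb1 at 277 and Rel at 124 were the lowest. Nfkbie was above Nfkb2 in 7 of 8 libraries and Relb above Nfkb1 in 4 of 8, whereas all the other neighbors kept their order in 8 of 8.

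The arms were contrasted because CCR8+ cells held more transcript of Tnfrsf9, a costimulatory TNF receptor that signals through TRAF proteins and can engage both arms. Tnfrsf9 had 3248, 4823, 2358 and 4987 normalized counts in CCR8- replicates 1 to 4 and 7710, 10436, 16052 and 10938 in CCR8+ replicates 1 to 4. The CCR8+ libraries lay wholly above the CCR8- libraries, as was the case for 2.37% of all genes. The log2 fold change of Tnfrsf9 was 1.57 ± 0.30 (standard error; limma adjusted p = 0.788, DESeq2 adjusted p = 7.3e-04). The study picked this gene out from the same libraries, so its difference is not independent evidence. The mean log2 level of Nfkb1, Rel and Rela was 10.64, 10.56, 10.81 and 10.51 in CCR8- replicates 1 to 4 and 11.09, 10.70, 11.71 and 11.14 in CCR8+ replicates 1 to 4. These canonical levels were higher in the CCR8+ library in 4 of 4 same-numbered libraries, and the population means, 11.16 ± 0.42 (SD, n = 4) and 10.63 ± 0.13 (SD, n = 4), were 0.53 apart. Without CCR8+ replicate 3 they were 0.35 apart, and without the 3 libraries that lacked genes 0.29. The mean log2 level of Nfkb2 and Relb was 9.16, 10.41, 10.62 and 10.40 in CCR8- replicates 1 to 4 and 9.91, 10.60, 10.21 and 10.71 in CCR8+ replicates 1 to 4. These noncanonical levels were higher in the CCR8+ library in 3 of 4, and their means, 10.36 ± 0.37 (SD, n = 4) and 10.15 ± 0.67 (SD, n = 4), were 0.21 apart. Without CCR8- replicate 1 the CCR8+ mean was the lower, with a difference of −0.12. The difference was between 0.10 and 0.37 without any 1 of the other libraries, and 0.18 without the 3.

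The difference between the arms within a library did not follow the populations. The noncanonical minus the canonical level was −1.48, −0.15, −0.19 and −0.11 on the log2 scale in CCR8- replicates 1 to 4 and −1.17, −0.09, −1.49 and −0.43 in CCR8+ replicates 1 to 4. The 3 libraries between −1.49 and −1.17 were those with missing genes, and the other libraries of both populations lay between −0.43 and −0.09. The mean difference (SD, n = 4) was −0.80 ± 0.65 for CCR8+ and −0.48 ± 0.67 for CCR8- cells, so CCR8+ cells were lower by 0.31, less than the spread between libraries. It was higher in the CCR8+ library for 2 numbers and lower for the other 2. With the canonical arm taken as Nfkb1 and Rela alone the value was −0.33, and without the 3 libraries it was −0.11. No test was made of these means, because they are scores over chosen genes.

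**Figure D3:**
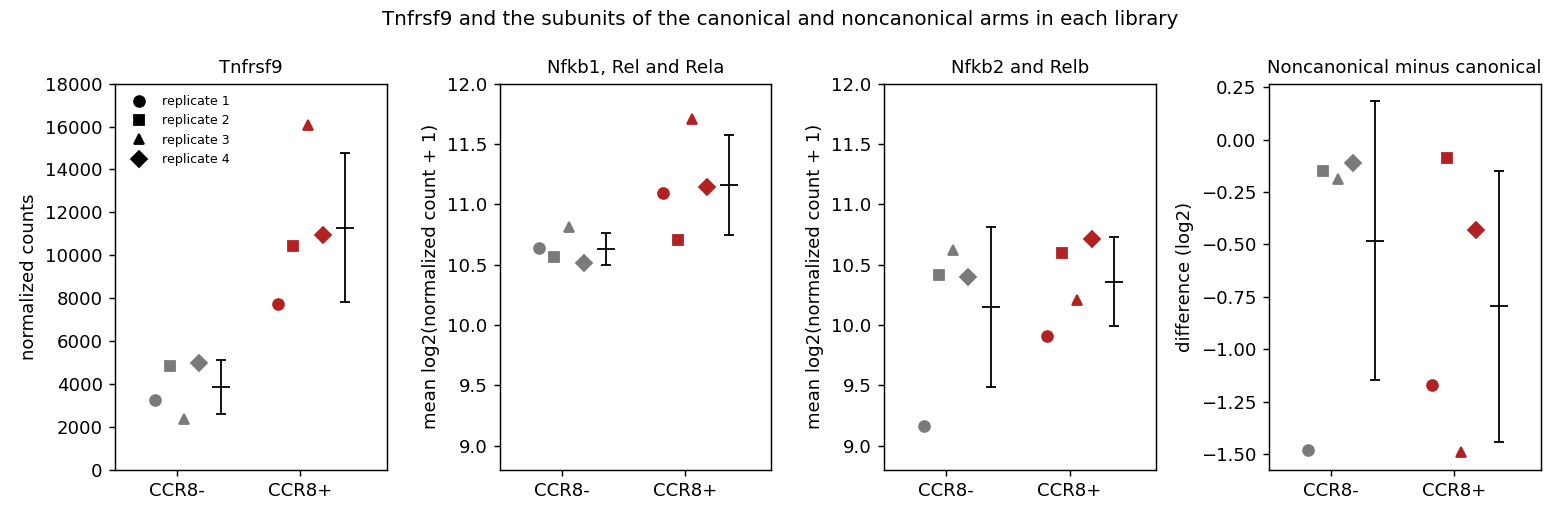
From left to right, Tnfrsf9 in normalized counts, the mean log2(normalized count + 1) of the canonical and of the noncanonical subunits (axes not from 0), and the noncanonical minus canonical difference, in each CCR8- (grey) and CCR8+ (red) library with mean and SD. Tnfrsf9 separates the populations, whereas the arm difference ranges from −1.48 to −0.11 in CCR8- and from −1.49 to −0.09 in CCR8+ libraries.

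The members also varied among themselves across the 8 libraries. Pearson's r on the log2 scale was computed for 55 relations, 45 between members and 10 of a member with Tnfrsf9, and 0 had an adjusted permutation p under 0.05. The closest relation between subunits was that of Nfkb1 and Rel, with r = 0.85 (permutation p = 0.00313, adjusted p = 0.172) and Spearman's rho = 0.81 (permutation p = 0.0218, adjusted p = 0.633). It was 0.85 without the 2 libraries farthest from the median of Nfkb1 and 0.80 within the populations. For Nfkb2 and Relb, r was 0.83 (permutation p = 0.0184, adjusted p = 0.252) and rho 0.71 (permutation p = 0.0576, adjusted p = 0.633). Within the populations r was 0.88, but without the 2 farthest libraries it was 0.37, so the relation rests largely on those libraries. With Tnfrsf9, r was 0.71 for Nfkb1 (permutation p = 0.0308, adjusted p = 0.338; rho = 0.67, permutation p = 0.0831, adjusted p = 0.762), 0.59 without the 2 farthest libraries and 0.39 within the populations. For Tnfaip3 and Tnfrsf9, r was −0.67 (permutation p = 0.0564, adjusted p = 0.363) and rho −0.52 (permutation p = 0.197, adjusted p = 0.873), and r was −0.25 without the 2 farthest libraries and −0.28 within the populations.

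For each subunit the 3 tested genes with the highest r over the 8 libraries were named, as a description. For Nfkb1 they were Ero1l (r = 0.97), which encodes an oxidase of the endoplasmic reticulum, Arl14ep (0.96) and Pparg (0.96), a nuclear receptor. For Rel they were Ankrd39 (0.96), C1qbp (0.95) and the proteasome ATPase Psmc1 (0.94). For Rela they were Cdca4 (0.98), Sec24c (0.98), a coat protein of transport vesicles, and Ralgapa2 (0.98). For Nfkb2 they were Anapc1 (0.98), Pdhx (0.97) and Il2rb (0.96), a chain of the IL-2 receptor, and for Relb they were Ahsa2 (0.99), Ssbp4 (0.98) and Ascc1 (0.98). Spearman's rho was at least 0.83 for the genes named with the other subunits, and 0.90, 0.52 and 0.76 for those named with Relb in the same order. The points share libraries, depth and, for several of these genes, the 3 libraries with missing genes.

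The genes that relay signals to NF-kB were described from lists of known pathway members, in which Birc3, Chuk, Tnf and Bcl3 each stand in more than 1 list. Of 16 genes of the canonical relay, 7 had a log2 fold change above 0 and 9 below 0, with a median of −0.09 (−0.24 without the 3 libraries that lacked genes), and 0 were called by limma in either direction. Prkcq, a kinase of T cell receptor signaling, and Ikbkb, an IkB kinase, were lower in the CCR8+ library in 4 of 4 same-numbered libraries, with log2 fold changes of −0.69 and −0.70 (limma adjusted p = 0.838 for both). Prkcq and Ikbkb were chosen after their values were seen.

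Larger fold changes of Tab2, Tab3 and Map3k7 in the canonical relay rested on libraries with missing genes. Tab2, an adaptor of the kinase TAK1, was at 0 in CCR8+ replicate 1 and between 451 and 1222 normalized counts in all other libraries, and its log2 fold change of −2.57 was −0.28 without the 3 libraries. Tab3 was at 0 in the same library (log2 fold change −1.76, and −0.19 without the 3). Map3k7, the gene of TAK1, had 0.985 normalized counts in CCR8- replicate 1 and between 282 and 532 elsewhere, and its log2 fold change of 1.66 was 0.01 without the 3.

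Of 6 genes of the noncanonical relay, 3 lay above and 3 below 0, with a median of −0.05, and 0 were called. Traf3, which marks NIK for degradation, was at 0 in CCR8- replicate 1 and between 174 and 682 normalized counts elsewhere, with a log2 fold change of 2.26 that was 0.31 without the 3 libraries. Map3k14, the gene of NIK, had 7.57 normalized counts in CCR8+ replicate 1 and between 257 and 392 elsewhere, and its log2 fold change of −1.35 was −0.17 without the 3. Traf2, at −0.47, and Birc3, at 0.28, had smaller log2 fold changes, which were −0.07 and 0.01 without the 3.

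Among 12 tested genes of other NF-kB regulators, 5 lay above and 7 below 0, with a median of −0.16 (−0.23 without the 3), and 0 were called. Tnip1, whose product binds the Tnfaip3 protein and restrains the same arm, had 1067, 836, 1356 and 837 normalized counts in CCR8- replicates 1 to 4 and 426, 737, 672 and 699 in CCR8+ replicates 1 to 4. All 4 CCR8+ libraries were below all 4 CCR8- libraries, as was the case for 2.03% of all genes. The log2 fold change was −0.69 (limma adjusted p = 0.838, standard error 0.30, exact permutation p = 0.0286). That permutation p is the smallest possible and only restates that the populations did not overlap. Itch, a ubiquitin ligase that works with Tnfaip3, had a log2 fold change of −0.99 (limma adjusted p = 0.838), and Otulin, a deubiquitinase of linear chains, had −0.57 (limma adjusted p = 0.838). Both were lower in the CCR8+ library in 4 of 4 same-numbered libraries. Without the 3 libraries the log2 fold changes were −0.45 for Tnip1, −0.94 for Itch and −0.24 for Otulin. Tnip2, at −1.07, rested on CCR8+ replicate 1, where it was at 0, and had a log2 fold change of −0.23 without the 3 libraries.

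Of 11 TNF receptors, 7 lay above and 4 below 0, with a median log2 fold change of 0.37 that was 0.75 without the 3 libraries, and 0 were called by limma. Beside Tnfrsf9, the largest log2 fold changes were those of Tnfrsf8 (3.60), Ltbr (3.57), Cd40 (1.99) and Cd27 (−1.13), with limma adjusted p between 0.838 and 0.872. Without the 3 libraries these were 3.43, 2.78, 2.01 and −0.67. Tnfrsf8, a receptor of activated lymphocytes, had 0, 3.68, 29.8 and 0 normalized counts in CCR8- replicates 1 to 4 and 3.24, 82.3, 230 and 37.4 in CCR8+ replicates 1 to 4. Ltbr, a receptor of stromal and myeloid cells that is a classical input of the noncanonical arm, was at 0 in CCR8- replicates 1 and 3, had 47 and 114 in replicates 2 and 4, and had between 60.4 and 136 in CCR8+ libraries. Cd40, a receptor of antigen-presenting cells, was at 0 in CCR8- replicates 1 and 3 and CCR8+ replicate 3, the libraries with the 3 lowest sums of macrophage markers (80.8, 1079 and 2624), and the part of macrophages was not tested.

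Of 7 TNF ligands, 5 lay above and 2 below 0, with a median log2 fold change of 0.68 that was −0.15 without the 3 libraries, and 0 were called. Lta and Tnf had log2 fold changes of 2.25 and 1.43 over all libraries, and 0.63 and −0.21 without the 3. Tnfsf11, the gene of RANKL, had 718, 1616, 2103 and 2351 normalized counts in CCR8- replicates 1 to 4 and 2052, 2144, 6217 and 4127 in CCR8+ replicates 1 to 4. It was higher in the CCR8+ library in 4 of 4 same-numbered libraries, with a log2 fold change of 1.07 (limma adjusted p = 0.838, standard error 0.44, exact permutation p = 0.143). Ltb, which encodes a part of the ligand of Ltbr, was lower in 4 of 4, with a log2 fold change of −0.68 (limma adjusted p = 0.838). Without the 3 libraries Tnfsf11 was at 0.57 and Ltb at −0.25.

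Of 27 genes known as NF-kB targets, 22 lay above and 5 below 0, with a median log2 fold change of 0.50, and 0 were called. Over all genes 52.4% lay above 0. In 9 of the 27 the CCR8+ library was higher in 4 of 4 same-numbered libraries, compared with 8.44% of all genes. In 1 of the 27 it was lower in 4 of 4, compared with 8.1% of all genes. The 9 that were higher in 4 of 4 include Bcl2l1 and Il2ra, and the paper names Il2ra as enriched in CCR8+ cells of these libraries. They also include Bcl2a1b, which shares 49.1% of its exonic bases with another gene. The smallest log2 differences within a number were 0.02 for Traf1 and 0.03 for Sod2. These counts are therefore not independent evidence about NF-kB targets. Without the 3 libraries that lacked genes the median was 0.32, and 19 of 27 lay above 0. Bcl2l1, which encodes the survival protein BCL-XL, had 517, 1397, 2261 and 1537 normalized counts in CCR8- replicates 1 to 4 and 3086, 2538, 4520 and 4736 in CCR8+ replicates 1 to 4. It was the only target gene whose populations did not overlap, whereas 2.37% of all genes were wholly above and 2.03% wholly below. Limma did not call Bcl2l1. Its log2 fold change was 1.51 ± 0.41 (standard error; exact permutation p = 0.0286, the smallest possible, which restates the lack of overlap), and 1.03 without the 3 libraries. The study's own gene list for these libraries holds Bcl2l1, so its difference is not independent evidence. Ier3, an early-response gene, had a log2 fold change of 3.19 that was 0.67 without the 3 libraries, and Cxcl10 had 1.47 that was −0.48 without them. Il2, at −3.20, had between 72.8 and 157 normalized counts in CCR8- libraries and 1.08, 113, 1.14 and 62.7 in CCR8+ replicates 1 to 4, and was −0.46 without the 3 libraries.

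**Figure D4:**
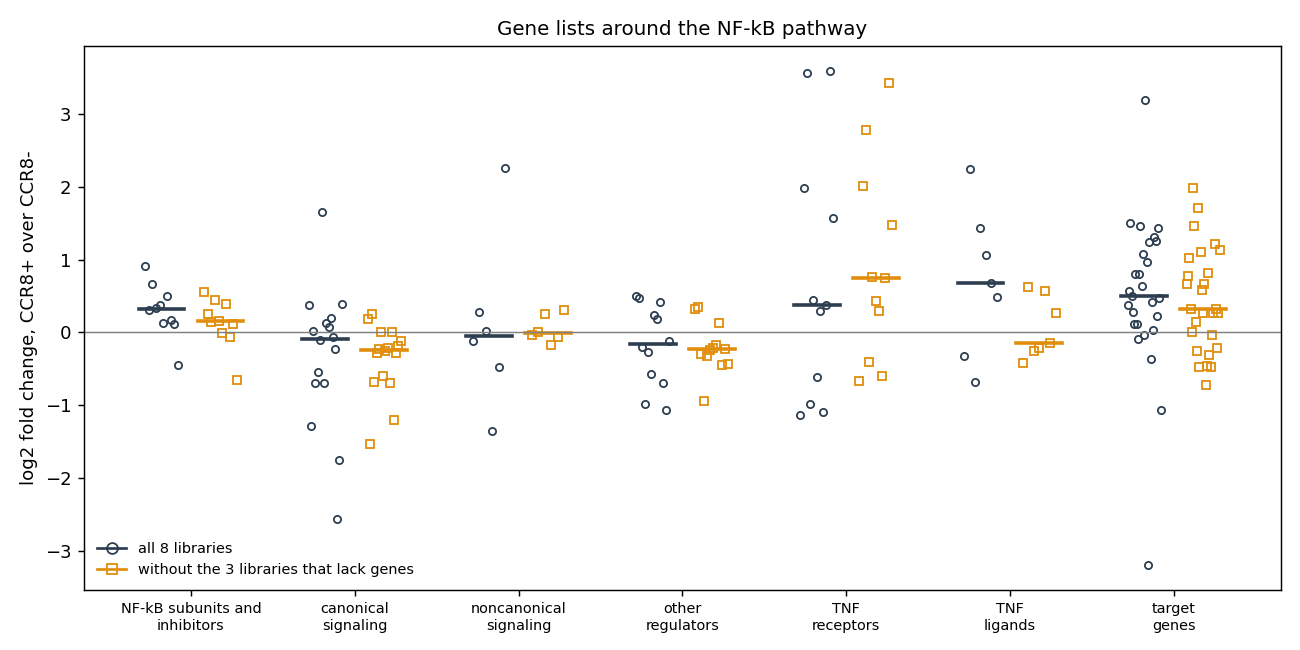
Log2 fold change of CCR8+ over CCR8- cells for each tested gene of 7 lists around NF-kB, with the median as a line, over all 8 libraries (dark circles) and without the 3 libraries that lacked genes (orange squares). The median of the 10 subunits and inhibitors goes from 0.32 to 0.15, that of the target genes from 0.50 to 0.32, that of the TNF ligands from 0.68 to −0.15 and that of the TNF receptors from 0.37 to 0.75.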

How the data were processed

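RNA of sorted cells was amplified with a low-input kit, and the authors deposited a signal per gene and library, named FPM, namely read counts divided by 1 factor per library. The methods and the submitters' processing notes name FastQC, Cutadapt, hisat2, HTSeq, DESeq2 and the NCBIM37 (mm9) build, and the sources used here give neither versions nor strandedness. Whole reads were recovered for 100% of values within 0.01 of a read. The main test took the deposited values unscaled, with limma 3.58.1 (intensity trend) in R 4.3.3. edgeR 4.0.16 and DESeq2 1.42.0 used the recovered reads. Reads carry no molecular identifiers, so read numbers overstate the molecules counted. GENCODE M21 (GRCm38) gave positions and lengths. Columns of per-sample values not used numbered 0.

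Named were the members, Tnfrsf9, Ccr8, up to 4 genes with the largest changes of each list, and the 3 genes most like each subunit, and some genes of the lists are not reported here. The members and lists were chosen with earlier results of these data known. Alternatives were other pseudocounts (0.1, 10), limits on the mean (none, 100), scalings, the replicate block, tools and libraries left out. Leaving out the 3 libraries that lacked genes was chosen after seeing the data. On simulated data with the spread of these libraries, limma recovered 143, edgeR 148 and DESeq2 169 of 200 genes given a log2 change of 3 among 10710 genes, with 10, 5 and 74 false calls. The largest log2 fold change of a member was 0.91, and changes of that size and missing genes were not simulated. The recovery therefore does not tell how often changes like those of the members would be called.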

Additional observations from a re-analysis of the deposited data

Results flagged for a closer look

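A library that lay far from the others of its population was sought for the 10 members and Tnfrsf9 in both populations, 22 groups in all. Of these, 5 stood out, and the nominal rate of the rule is about 1 in 20. The share over all genes was not computed, and the groups share the same 8 libraries, so the count is not read as an excess. Nfkb1 in CCR8+ replicate 3 had 12162 normalized counts, with the other CCR8+ libraries between 3223 and 4243. Relb in CCR8- replicate 1 had 342, with the others between 1123 and 1218. Nfkbie in CCR8+ replicate 2 had 1843, with the others between 1493 and 1537. Tnfaip3 stood out in replicate 3 of both populations, at 15458 in CCR8+ (others between 11379 and 11863) and at 25388 in CCR8- cells (others between 14346 and 15798). The values of Nfkb1, of Relb and of Tnfaip3 in CCR8+ replicate 3 lie in libraries with missing genes, and the part of those libraries was not tested.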

How the results depend on the processing

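No member was called under any of the 26 alternatives, and the lowest adjusted p of a member was 0.182 (Tnfaip3, DESeq2 with the replicate block). Of 260 values of members under alternatives, 252 kept their direction. The 8 others were Rela without CCR8- replicate 1 (−0.10), without replicate 1 of both populations (−0.17) and without the 3 libraries that lacked genes (−0.07), Relb without CCR8- replicate 1 (−0.33), CCR8+ replicate 2 (−0.04), CCR8+ replicate 4 (−0.02) or replicate 1 of both (−0.15), and Nfkbiz without the 3 libraries (−0.01). With libraries left out, Rela lay between −0.17 and 0.48 and Relb between −0.33 and 0.39. The arm difference lay between −0.65 and 0.02 with libraries left out. The highest value, 0.02, came without replicate 3 of both populations. The number of members whose populations did not overlap, 0 over all libraries, was 1 with quantile normalization (Nfkb1) and between 0 and 2 with libraries left out. It was 3 without the 3 libraries (Nfkb1, Relb and Tnfaip3, with 2 against 3 libraries). Populations of fewer libraries separate more easily by the ordering of values alone. The share of all genes at these smaller sizes was not computed, so these counts are not read as an excess. Over all genes limma without its trend called 2, DESeq2 called 26 and every fit with a library left out called 0. Tnfrsf9 was called by DESeq2 with and without the block (adjusted p = 7.4e-04 and 7.3e-04). Bcl2l1 was called by DESeq2 with the block (adjusted p = 0.00527) and not without it (adjusted p = 0.0604). The causes were not tested.

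Deviations from the population means correlated by 0.0682 to 0.217 within same-numbered libraries, and by −0.171 to 0.101 between libraries of different numbers. The limit chosen for pairing, 0.1, was exceeded in 3 of 4 same-numbered libraries, and 7 of 8 libraries correlated best with their own number. The main test was unpaired, and neither the labels nor these values settle whether the numbers are pairs. With the replicate block limma called 1 gene and DESeq2 124, compared with 0 and 26 without it.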

Other observations

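The balance between Nfkbia and Tnfaip3, both known as feedback inhibitors of the canonical arm, was examined as a ratio of normalized counts, a quantity chosen after the values of the members were seen. The ratio was 1.37, 2.21, 1.93 and 4.46 in CCR8- replicates 1 to 4 and 2.83, 3.27, 9.65 and 6.57 in CCR8+ replicates 1 to 4. It was higher in the CCR8+ library in 4 of 4 same-numbered libraries. This follows by arithmetic from Nfkbia being higher and Tnfaip3 lower in 4 of 4, and adds nothing to those values. The populations overlapped because CCR8- replicate 4 was above CCR8+ replicates 1 and 2. The mean log2 ratio (SD, n = 4) was 2.30 ± 0.84 for CCR8+ and 1.18 ± 0.71 for CCR8- cells, 1.12 apart, or 0.80 without CCR8+ replicate 3 and 0.79 without the 3 libraries that lacked genes. The log2 ratio of Nfkb2 to Nfkb1, the precursors of the noncanonical and canonical arms, (SD, n = 4) was −1.48 ± 0.87 for CCR8+ and −0.88 ± 0.67 for CCR8- cells, a difference of −0.60, less than the spread between libraries. The lowest ratio of normalized counts, 0.155, was that of CCR8+ replicate 3, without which the difference was −0.20, and it was −0.31 without the 3 libraries and −0.93 without CCR8- replicate 1. No test was made of these ratios.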
